A study of Mus musculus with 16 samples.

Results

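The genes followed here are 10 mouse genes of the pigment cell and of its main growth signal: the enzymes *Tyr*, *Tyrp1* and *Dct*, the melanosome proteins *Pmel* and *Mlana*, the transcription factors *Mitf* and *Sox10*, the receptors *Kit* and *Mc1r*, and the ligand *Kitl*. They were taken by name from the 55359 genes counted in each library, through their Ensembl identifiers and GENCODE symbols on GRCm39, and all 10 were present. Each of the 16 libraries was made from the dorsal skin, taken whole, of 1 wild-type C57Bl/6 mouse (C57Bl/6N in the study's text) at an age of 8 weeks, when the labels place the hair follicles in telogen, their resting phase. Males and females were each split into 4 mice given 3 exposures to UVB, with skin taken 6 h after the last exposure on day 5, and 4 mice given no UVB. Polyadenylated RNA of the whole tissue was sequenced in a strand-specific way, and no mouse carried a transgene or a deletion. In whole skin a lower value can come from fewer cells of a type or from less RNA per cell, and these cannot be told apart here. Nothing in the labels says whether mice of a group shared a litter or a cage, so the tests measure the spread between these 16 animals.

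Melanocytes make melanin inside melanosomes, which grow on fibrils of PMEL, and the copper enzyme tyrosinase begins the synthesis from tyrosine while TYRP1 and DCT act on later intermediates. MITF, itself driven by SOX10, switches on these genes, and UV exposure is known to engage the pathway when keratinocytes release melanocortin that acts on MC1R and stem cell factor, the product of *Kitl*, that acts on KIT. In resting mouse skin most melanocyte stem cells lie in the hair follicle bulge and hold little pigment. Several of these genes are not specific to the pigment cell, since mast cells carry KIT and MITF and Schwann cells carry SOX10.

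Between 16495776 and 33404831 reads fell on genes in each library (median 21767339), which was 70.08 to 79.22% of the library, and no mouse was left out. Values are given as CPM, which are counts scaled to a library of 1000000 reads on genes with the TMM factors of edgeR. The UVB and no-UVB mice of a sex were compared by edgeR's quasi-likelihood test in a fit of their own, and the threshold was an adjusted *p* of 0.1 (Benjamini-Hochberg) over all genes tested, which was 16535 genes in males and 16883 in females. Of the 10 genes, 9 had enough counts to be tested, and *Mc1r* did not. Markers of basal keratinocytes, a check on the labelled tissue, summed to 4751 to 12049 CPM. *Oca2*, *Slc45a2* and *Gpr143*, which encode melanosome membrane proteins and mark pigment cells, were near the limit of detection, with at most 6, 20 and 5 counts in any mouse. A few libraries stood apart. The 16 hair shaft and matrix markers were listed as markers of anagen, the growing phase of the follicle. They summed to 125 and 178 CPM in no-UVB male replicates 3 and 4 and to 31.5 to 54.2 CPM in the other 14 mice. No-UVB female replicate 1 was the highest mouse for several pigment genes. For the 9 tested genes, calls that change without these mice are given both ways, and for the other gene lists where stated. Leaving out both males was chosen after the values were seen.

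Per length of exon, the 10 genes lay on 2 levels. *Kitl* was the highest in no-UVB males at 6.03 ± 0.196 CPM per kilobase (SD, n = 4), followed by *Mlana* at 4.13 ± 0.960, *Sox10* at 4.12 ± 0.683, *Mitf* at 4.03 ± 0.224 and *Tyrp1* at 3.22 ± 0.922, and these last 4 did not differ beyond their spread. *Kit* at 2.08 ± 0.191, *Dct* at 1.79 ± 0.388 and *Pmel* at 1.41 ± 0.189 CPM per kilobase came next, each within the spread of its neighbour. *Tyr* at 0.0656 ± 0.00469 and *Mc1r* at 0.0195 ± 0.0160 CPM per kilobase stood far under all others in the same mice. In no-UVB females the order below *Kitl* at 6.95 ± 0.596 CPM per kilobase differed, with *Tyrp1* at 6.11 ± 4.44, *Pmel* at 3.62 ± 2.32 and *Dct* at 3.54 ± 2.05 above *Kit* at 2.52 ± 0.187 and *Mlana* at 2.17 ± 1.05, while *Sox10* at 4.27 ± 0.619 and *Mitf* at 3.76 ± 0.539 lay between *Tyrp1* and *Pmel*. The high place of *Tyrp1*, *Dct* and *Pmel* in that order rested on no-UVB female replicate 1. Without it *Tyrp1* was 3.92 ± 0.718, *Dct* 2.52 ± 0.272, *Pmel* 2.47 ± 0.376 and *Kit* 2.46 ± 0.175 CPM per kilobase (SD, n = 3), the last 3 alike within their spread. *Sox10* was then 4.08 ± 0.608, *Mitf* 3.50 ± 0.154 and *Mlana* 1.66 ± 0.311 CPM per kilobase, and *Mlana* stayed below *Kit*.

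**Figure D1:**
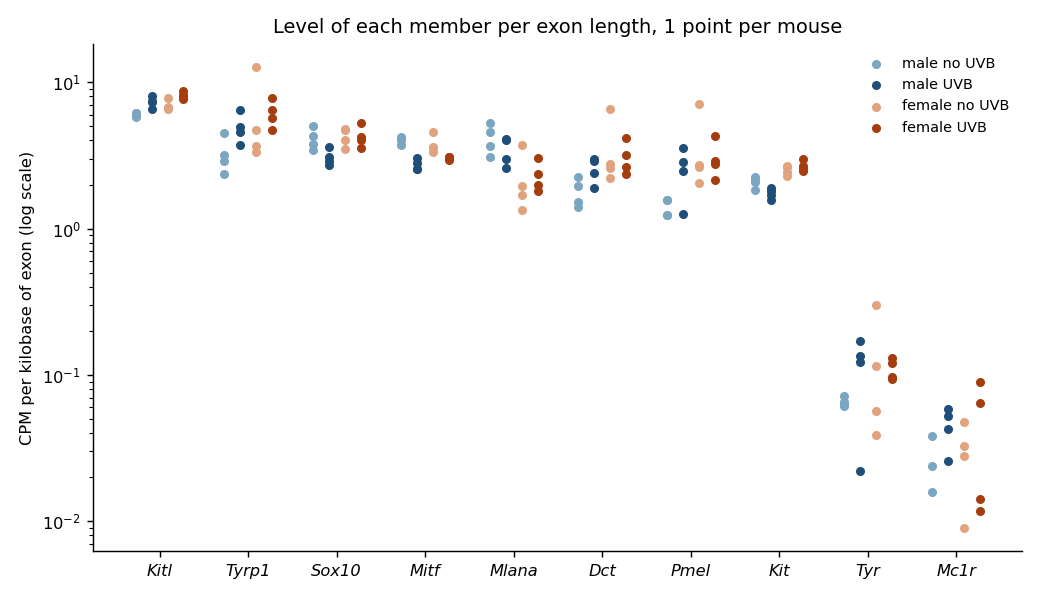
Level of each of the 10 genes in CPM per kilobase of exon, on a log axis, with 1 point per mouse and colours for the 4 groups; the single value of 0 (*Mc1r* in 1 no-UVB male) is not drawn. *Kitl* lies at the top in no-UVB males (6.03 on average), while *Tyr* and *Mc1r* lie well apart at the bottom (0.0656 and 0.0195).

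In males 7 of the 9 tested genes changed after UVB, and they went in both directions. *Tyrp1*, *Dct*, *Pmel* and *Kitl* rose (4 of 9, against 29.0% of all genes tested), and *Mitf*, *Sox10* and *Kit* fell (3 of 9, against 30.5%). The groups did not overlap for 1 gene that was higher, *Kitl* (against 22.9% of all genes), and 1 that was lower, *Mitf* (against 24.3%). Without no-UVB male replicates 3 and 4 the counts were 2 higher, *Pmel* and *Kitl* (against 28.9% of all genes), and 2 lower, *Mitf* and *Kit* (against 27.1%). The median of the 9 log2 fold changes was 0.30, against -0.02 over all genes tested. In females *Kitl* rose (1 of 9, against 12.8%) and *Mitf* fell (1 of 9, against 10.6%), and *Mitf* was the 1 gene whose groups did not overlap (against 10.1%), with a median of 0.01 over the 9 genes and 0.00 over all genes (0.0025). None of the 9 tested genes passed a log2 fold change of 1 in either sex, while 4.08% of genes rose and 3.31% fell past it in males and 1.63% rose and 1.08% fell past it in females.

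*Kitl* (chr10:99851492-99936278, plus strand) encodes stem cell factor, which keratinocytes, fibroblasts and endothelial cells make. In no-UVB males *Kitl* stood at 51.9, 51.7, 49.3 and 48.7 CPM and in UVB males at 54.6, 67.1, 61.8 and 61.6 CPM. In no-UVB females it stood at 65.6, 56.6, 55.5 and 55.0 CPM and in UVB females at 67.6, 72.6, 68.9 and 64.1 CPM. All 4 irradiated males lay above all 4 control males, and among females 1 control mouse, replicate 1, reached into the irradiated range. The fitted log2 fold change was 0.30 (SE 0.0683, adjusted *p* = 0.00334, edgeR, n = 4 per group) in males, a level 1.23 times that of the controls, and 0.24 (SE 0.0766, adjusted *p* = 0.0596, edgeR) in females. The male call held under all 16 alternatives (adjusted *p* 0.000371 to 0.0153, edgeR and DESeq2), and the female call held under 8 of 16 (0.0232 to 0.144), lost when no-UVB female replicate 2, 3 or 4 or UVB female replicate 1, 2 or 3 was left out. The male and female responses differed by 0.05 (SE 0.0998, 95% interval -0.170 to 0.265, adjusted *p* = 0.822, edgeR).

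Keratinocytes are a main source of stem cell factor in skin. The 7 basal keratinocyte markers summed to 8649 to 12049 CPM in UVB males and 6367 to 9120 CPM in no-UVB males, with 3 of 7 higher (*Krt14*, 1.43 on the log2 scale, *Itgb4*, 0.38, and *Itga6*, 0.24) and 1 lower (*Krt15*, -1.25), against 29.0% and 30.5% of all genes. In females they summed to 4751 to 7388 CPM after UVB and 5343 to 8259 CPM without, with 1 of 7 higher and 1 lower, against 12.8% and 10.6%. Without no-UVB males 3 and 4, 4 of 7 were higher and 1 lower in males, against 28.9% and 27.1%. The ranges of the sum overlapped between UVB and no UVB in both sexes, and its median was 7833 CPM without UVB and 9744 CPM after it in males and 7694 and 6262 CPM in females. Their part in the rise of *Kitl* was not tested.

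*Kit* (chr5:75735576-75817404, plus strand), the receptor tyrosine kinase that binds stem cell factor, fell in males and did not pass the test in females. In no-UVB males *Kit* stood at 21.3, 20.7, 17.2 and 19.6 CPM and in UVB males at 14.9, 16.02, 17.95 and 17.2 CPM. Control females had 25.6, 25.1, 22.9 and 21.8 CPM and irradiated females 25.5, 24.5, 23.3 and 28.2 CPM. Male groups overlapped through 1 control at 17.2 CPM, while every UVB male lay below every female mouse of either group. The log2 fold change was -0.24 (SE 0.0906, adjusted *p* = 0.0446, edgeR) in males and 0.10 (SE 0.0844, adjusted *p* = 0.477, edgeR) in females. The male call was lost when 1 mouse was left out in 3 of 8 cases (log2 fold change -0.18 without UVB replicate 1, -0.20 without no-UVB replicate 1 and -0.21 without no-UVB replicate 2), with adjusted *p* between 0.0111 and 0.137 over all 16 alternatives. The difference of the responses, males minus females, was -0.35 (SE 0.123, 95% interval -0.618 to -0.080, unadjusted *p* = 0.0117, adjusted *p* = 0.124, edgeR), which did not pass the test but did so at an adjusted *p* as low as 0.0633 when 1 mouse was left out, in 2 of 16 cases (no-UVB male replicate 3 and UVB female replicate 3).

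Receptor and ligand moved apart in males. The ratio of *Kit* to *Kitl* CPM, a measure that no scaling between libraries can change and that was chosen after the values were seen, was 0.411, 0.400, 0.350 and 0.402 in no-UVB males and 0.273, 0.239, 0.290 and 0.278 in UVB males. It was 0.390, 0.444, 0.413 and 0.397 in no-UVB females and 0.377, 0.338, 0.339 and 0.440 in UVB females. The means were 0.391 ± 0.0278 and 0.270 ± 0.0221 in males and 0.411 ± 0.0239 and 0.373 ± 0.0483 in females (SD, n = 4), so the UVB males formed a separate low group and the UVB females did not.

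Mast cells are the other main KIT-bearing cell of the dermis besides the melanocyte. In males 3 of 12 mast cell markers rose and 2 fell after UVB (against 29.0% and 30.5% of all genes), and their sum was 220 to 281 CPM without UVB and 263 to 304 CPM with it. In females 7 of 12 rose and none fell (against 12.8% and 10.6%), with a sum of 288 to 427 CPM without UVB and 370 to 540 CPM with it, and the list's median log2 fold change was 0.16 in males and 0.44 in females. Without no-UVB males 3 and 4, 4 rose and 1 fell in males (against 28.9% and 27.1% of all genes). Without no-UVB female replicate 1, 9 of 12 rose in females. The high affinity IgE receptor gene *Fcer1a* led the list at 1.05 in males (adjusted *p* = 0.00474, edgeR) and 1.48 in females (adjusted *p* = 0.0142, edgeR), *Ms4a2*, another chain of that receptor, rose by 0.48 and 0.58, the chymase gene *Cma1* rose by 0.51 in females, where males stood at 0.22 (adjusted *p* = 0.108, edgeR), and the interleukin 33 receptor gene *Il1rl1* fell by 0.47 in males. No list gene was at 0 in all mice. The part of mast cells in the *Kit* values was not tested.

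**Figure D2:**
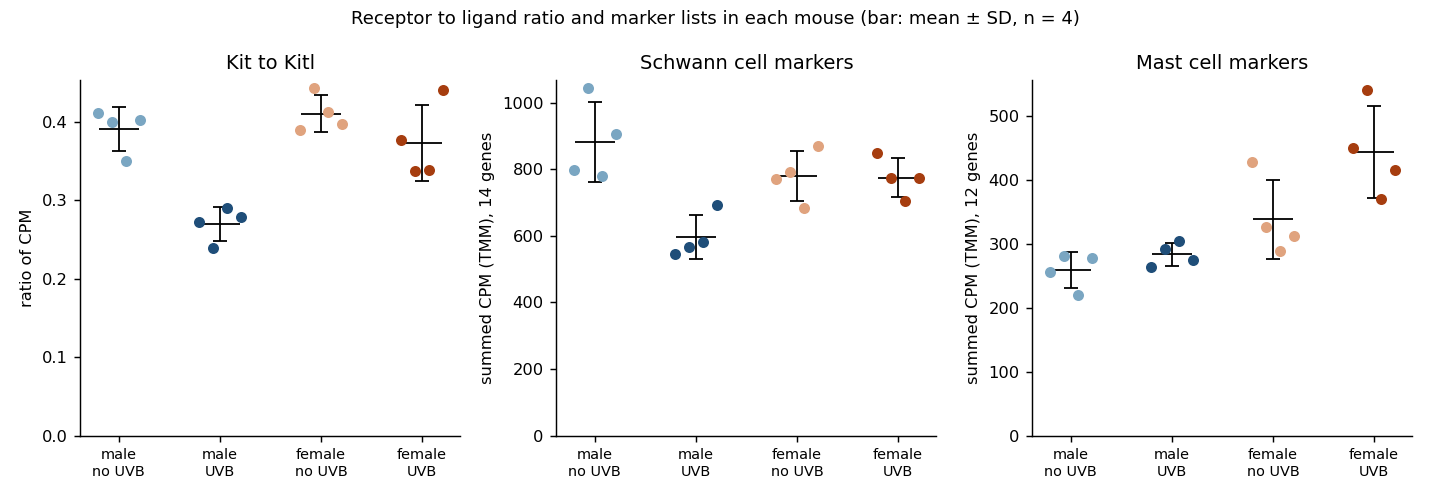
Ratio of *Kit* to *Kitl* CPM, summed CPM of 14 Schwann cell markers and summed CPM of 12 mast cell markers, with 1 point per mouse and the mean ± SD of each group (n = 4). The UVB males lie below all other mice in the ratio (0.239 to 0.290), and in the Schwann cell sum (546 to 692 CPM) they lie below the no-UVB males but reach the lowest no-UVB female (684 CPM), while the mast cell sum is highest in UVB females (370 to 540 CPM).

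*Mitf* (chr6:97783950-97998323, plus strand), the transcription factor that sits at the centre of the melanocyte programme, fell in both sexes. In no-UVB males *Mitf* stood at 42.5, 37.7, 42.4 and 41.0 CPM and in UVB males at 28.6, 25.97, 30.8 and 25.9 CPM. Females had 46.1, 35.9, 33.8 and 36.8 CPM without UVB and 30.9, 31.3, 29.8 and 31.1 CPM after it. Every irradiated mouse lay below every control mouse of its sex, and the 4 UVB females lay close together at 29.8 to 31.3 CPM. The fitted log2 fold change was -0.53 in males (SE 0.0749, adjusted *p* = 0.000148, edgeR), a level 30.9% lower, and -0.30 in females (SE 0.0953, adjusted *p* = 0.0576, edgeR), a level 18.9% lower. The male call held under all 16 alternatives and the female call under 13 of 16 (adjusted *p* 0.0168 to 0.129), lost when UVB female replicate 1, 3 or 4 was left out. The responses differed by -0.25 (SE 0.122, 95% interval -0.513 to 0.020, adjusted *p* = 0.263, edgeR), and without no-UVB female replicate 1 by -0.35 (adjusted *p* = 0.0718, edgeR, with 0.0718 to 0.467 over the alternatives).

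*Mitf* is transcribed in many cells from several promoters, macrophages and mast cells among them, and gene counts add all its isoforms. Of 8 macrophage markers 5 fell in UVB males (*Adgre1* by 0.44, *C1qa* by 0.39, *Csf1r* by 0.39 and *C1qb* by 0.36 on the log2 scale) and 1 in UVB females, *Adgre1*, which fell by 0.36, and none rose. Of all genes 30.5% fell in males and 10.6% in females. Without no-UVB males 3 and 4, 1 of the 8 rose and 5 fell in males, against 28.9% and 27.1% of all genes. The sum of the 8 markers was 1373 to 1716 CPM in no-UVB males, 1038 to 1420 in UVB males, 1116 to 2036 in no-UVB females and 1036 to 1441 in UVB females. The part of macrophages in the fall of *Mitf* was not tested. The 5 genes whose log2 CPM followed *Mitf* most closely over the 16 mice were *Farp1* (Pearson *r* = 0.946), *Abi3bp* (0.926), *Enox1* (0.925), *Cntn1* (0.920) and *Htra1* (0.918), correlations that hold the shift between groups and were chosen after the values were seen.

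*Sox10* (chr15:79039108-79049469, minus strand), the neural crest transcription factor of melanocytes and Schwann cells, fell in males and not in females. In no-UVB males *Sox10* stood at 11.4, 12.5, 16.6 and 14.3 CPM and in UVB males at 9.03, 10.3, 12.1 and 9.70 CPM. The no-UVB females gave 16.1, 15.7, 11.7 and 13.4 CPM and the UVB females 13.5, 11.9, 14.02 and 17.7 CPM. Only 1 of the 4 UVB males reached into the control range of males, and the female groups overlapped broadly. The log2 fold change was -0.40 in males (SE 0.134, adjusted *p* = 0.0255, edgeR) and 0.01 in females (SE 0.140, adjusted *p* = 0.965, edgeR). The male call held when any 1 mouse was left out but not without both no-UVB males 3 and 4, the highest for *Sox10* among control males, where it was -0.18 (SE 0.131, adjusted *p* = 0.271, edgeR, the highest over the alternatives, whose lowest was 0.00845). The difference of the responses was -0.43 (SE 0.204, 95% interval -0.870 to 0.020, adjusted *p* = 0.247, edgeR), so that it was not shown to differ between the sexes.

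Like *Sox10*, most Schwann cell markers fell in UVB males as a group and not in UVB females. Of 14 markers 13 fell in UVB males (against 30.5% of all genes), none rose, and the median log2 fold change was -0.50. They included the myelin genes *Pmp22* (-0.65, adjusted *p* = 0.000668, edgeR) and *Mbp* (-0.60, adjusted *p* = 0.00078, edgeR), *Drp2* of the myelin sheath (-0.59) and the neurotrophin receptor gene *Ngfr* (-0.66). In females 1 of 14 fell (against 10.6% of all genes), *Ngfr* (-0.72, adjusted *p* = 0.0704, edgeR), and the median was 0.03. The sum of the 14 genes was 780 to 1043 CPM in no-UVB males and 546 to 692 CPM in UVB males, groups that did not overlap, and 684 to 870 and 706 to 847 CPM in females. For 8 of the 14 the male response was more negative than the female one at an adjusted *p* under 0.1 for the difference itself, a share to set beside the 4.25% of all genes that were called lower by that test, and without no-UVB female replicate 1 this held for 5 of the 14. Without no-UVB males 3 and 4, 12 of the 14 fell in males, while *Sox10* did not pass (-0.18, adjusted *p* = 0.271, edgeR). The sum did not follow *Sox10* in every mouse. No-UVB male replicate 3 had the highest *Sox10* of all males (16.6 CPM) and the lowest sum of the control males (780 CPM). UVB female replicate 4 had the highest *Sox10* of all mice (17.7 CPM) and a sum of 772 CPM, inside the range of its group. No marker was at 0 in all mice, and the part of Schwann cells in the *Sox10* values was not tested.

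**Figure D3:**
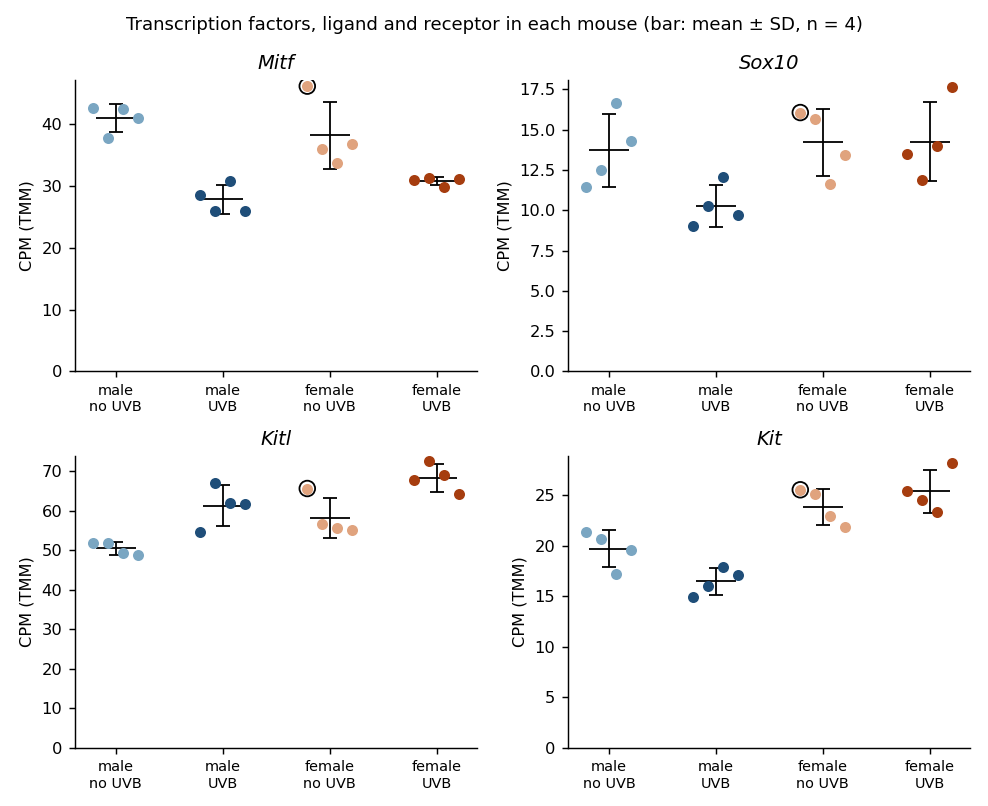
CPM of *Mitf*, *Sox10*, *Kitl* and *Kit* in each mouse, with the mean ± SD of each group (n = 4); no-UVB female replicate 1 is ringed. *Mitf* is lower after UVB in both sexes without overlap (25.9 to 30.8 against 37.7 to 42.5 CPM in males), *Kitl* is higher without overlap in males, and *Kit* is lowest in UVB males (14.9 to 17.95 CPM), with 1 no-UVB male among them (17.2 CPM).

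The 3 enzyme genes share a short motif in the sequence before their start. MITF is known to read the E-box letters CATGTG, as in the M-box of pigment gene promoters, and CACGTG. RefSeq promoter windows on GRCm38.p6 were at hand for 7 of the 10 genes, in 10 windows, and not for *Pmel*, *Mlana* and *Sox10*. In the 250 bases before the start, read on both strands (CACATG is CATGTG on the other strand, while CACGTG reads alike on both), CATGTG was found in 4 windows, those of *Tyr*, *Tyrp1*, *Dct* and *Mc1r*, and in none of those of *Mitf* (3 windows), *Kit* (2 windows) and *Kitl*. CACGTG was in none of the 10. Among all 32851 windows of this length 12.25% held CATGTG and 6.02% held CACGTG. The windows of the 3 enzymes are printed with each CATGTG or CACATG in capitals, to show where it lies.
*Tyr*, chr7:87493513-87493762, minus strand: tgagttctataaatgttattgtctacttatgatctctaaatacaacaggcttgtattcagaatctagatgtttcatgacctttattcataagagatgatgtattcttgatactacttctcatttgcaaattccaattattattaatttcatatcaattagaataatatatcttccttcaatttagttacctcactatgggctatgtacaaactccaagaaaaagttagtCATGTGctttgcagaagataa
*Tyrp1*, chr4:80833963-80834212, plus strand: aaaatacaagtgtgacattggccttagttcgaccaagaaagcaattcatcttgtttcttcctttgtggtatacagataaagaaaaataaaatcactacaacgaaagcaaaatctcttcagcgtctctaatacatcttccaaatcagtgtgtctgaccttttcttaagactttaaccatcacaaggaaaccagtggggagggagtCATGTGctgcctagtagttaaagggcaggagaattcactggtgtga
*Dct*, chr14:118052247-118052496, minus strand: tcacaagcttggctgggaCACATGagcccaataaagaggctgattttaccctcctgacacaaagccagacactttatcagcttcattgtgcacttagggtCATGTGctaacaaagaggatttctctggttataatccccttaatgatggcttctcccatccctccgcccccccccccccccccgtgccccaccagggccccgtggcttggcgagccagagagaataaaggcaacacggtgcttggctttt
Counted back from the start, the motif began 21 bases before it in *Tyr*, 46 in *Tyrp1* and 150 in *Dct*, which also held the reverse letters 232 bases before it. In *Tyr*, *Tyrp1* and the nearer motif of *Dct* the letters on the gene's own strand were CATGTG. A match of letters is a description and no measurement of binding.

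*Tyrp1* (chr4:80752360-80769956, plus strand on GRCm39) encodes an enzyme of eumelanin synthesis and rose in males. In no-UVB males *Tyrp1* stood at 8.95, 12.8, 6.63 and 8.14 CPM and in UVB males at 13.95, 13.02, 18.3 and 10.5 CPM. In no-UVB females it stood at 35.9, 13.4, 9.46 and 10.4 CPM and in UVB females at 16.2, 13.4, 18.2 and 21.99 CPM. In males 1 control lay above the lowest irradiated mouse, and among females no-UVB replicate 1 lay far above all other 15 mice. The fitted log2 fold change was 0.63 in males (SE 0.215, adjusted *p* = 0.0312, edgeR), a level 1.55 times that of the controls, and 0.02 in females (SE 0.393, 95% interval -0.941 to 0.982, adjusted *p* = 0.979, edgeR). Without no-UVB female replicate 1 the female value was 0.66 (SE 0.179, adjusted *p* = 0.0382, edgeR), which passed the test, with adjusted *p* of 0.0382 to 0.9997 over the 16 alternatives. The male call was lost with all 16 mice in a single fit (0.61, adjusted *p* = 0.197, edgeR) and with every gene of at least 1 count (0.66, adjusted *p* = 0.112, edgeR), and without both no-UVB males 3 and 4, the lowest of the control males for *Tyrp1* (0.41, SE 0.222, adjusted *p* = 0.165, edgeR), and its lowest adjusted *p* over the alternatives was 0.00371.

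*Dct* (chr14:118250202-118289656, minus strand) encodes dopachrome tautomerase, which melanocyte stem cells also express, and it rose in males alongside *Tyrp1*. In no-UVB males *Dct* stood at 11.6, 13.2, 8.97 and 8.31 CPM and in UVB males at 17.2, 14.2, 17.6 and 11.2 CPM. Control females had 38.9, 16.2, 13.1 and 15.3 CPM and irradiated females 15.6, 13.99, 18.8 and 24.7 CPM. Here too only the lowest UVB male lay within the control range of males, and the same control female stood apart. The log2 fold change was 0.54 in males (SE 0.178, adjusted *p* = 0.0261, edgeR) and -0.18 in females (SE 0.335, adjusted *p* = 0.756, edgeR), the latter 0.30 without that female (SE 0.184, adjusted *p* = 0.304, edgeR, the lowest over the alternatives, whose highest was 0.919). The male call was lost with all 16 mice in a single fit (0.52, adjusted *p* = 0.190, edgeR) and without both no-UVB males 3 and 4, again the lowest controls (0.33, SE 0.177, adjusted *p* = 0.154, edgeR), and its lowest adjusted *p* was 0.00577. The part of the hair shaft and matrix signal of these 2 males in the *Sox10*, *Tyrp1* and *Dct* values was not tested.

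*Tyr* (chr7:87073979-87142720, minus strand), the enzyme on which melanin synthesis depends, was counted too rarely for a firm statement. Between 3 and 49 reads were counted in a mouse, and *Tyr* stood at 0.513, 0.460, 0.433 and 0.459 CPM in no-UVB males and at 0.872, 1.21, 0.950 and 0.156 CPM in UVB males. Females had 2.12, 0.277, 0.819 and 0.404 CPM without UVB and 0.669, 0.685, 0.857 and 0.930 CPM after it. In males 3 irradiated mice lay above all controls and 1, replicate 4 with 3 reads, lay below all of them. The fitted log2 fold change was 0.78 in males (SE 0.439, 95% interval -0.297 to 1.853, adjusted *p* = 0.158, edgeR) and 1.11 without UVB male replicate 4 (SE 0.270, adjusted *p* = 0.00623, edgeR, with 0.00623 to 0.342 over 14 alternatives). In females it was -0.20 (SE 0.538, adjusted *p* = 0.841, edgeR), and it turned to 0.60 without no-UVB replicate 1 (adjusted *p* = 0.308, edgeR) and to 0.0433 with the replicate number as a block (adjusted *p* = 0.965, edgeR).

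*Pmel* (chr10:128540064-128556107, plus strand), the fibril protein of the melanosome, rose in males. In no-UVB males *Pmel* stood at 2.84, 3.59, 2.86 and 3.61 CPM and in UVB males at 6.57, 8.10, 5.70 and 2.87 CPM. The no-UVB females gave 16.2, 6.06, 4.68 and 6.26 CPM and the UVB females 6.33, 4.90, 6.69 and 9.90 CPM. UVB males 1 to 3 lay above all control males, replicate 4 lay among them, and the high control female was again replicate 1. The log2 fold change was 0.87 in males (SE 0.266, adjusted *p* = 0.0183, edgeR), a level 1.83 times that of the controls that passed under all 16 alternatives and without both no-UVB males 3 and 4 (0.89, adjusted *p* = 0.0810, edgeR), and -0.25 in females (SE 0.380, adjusted *p* = 0.707, edgeR). Without no-UVB female replicate 1 the female value turned to 0.30 (SE 0.226, adjusted *p* = 0.410, edgeR). Exons of *Cdk2* and *Dgka* overlap *Pmel* on the other strand, where 47.85% of the reads on its span lay, and the strand-specific count leaves these out.

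*Mlana* (chr19:29674900-29686034, plus strand) encodes a small melanosome protein that takes part in PMEL maturation, and its pattern was unlike that of the other pigment genes. In no-UVB males *Mlana* stood at 4.29, 3.59, 5.33 and 6.14 CPM and in UVB males at 3.02, 4.72, 3.48 and 4.80 CPM. In no-UVB females it stood at 4.33, 2.30, 1.57 and 1.97 CPM and in UVB females at 2.11, 2.74, 2.31 and 3.53 CPM. Male groups overlapped broadly, as did the female ones, and males tended to lie above females. The log2 fold change of -0.26 in males (SE 0.202, adjusted *p* = 0.294, edgeR) and 0.09 in females (SE 0.306, adjusted *p* = 0.874, edgeR) did not pass the test, and the male value was 0.04 without no-UVB males 3 and 4.

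*Mc1r* (chr8:124133846-124137483, plus strand), the melanocortin receptor, could not be measured at this depth. No mouse had more than 9 reads of *Mc1r* and 1 no-UVB male had 0 of 23200584, which allows up to 3 reads or 0.138 CPM on the TMM scale, for counting error only. Its CPM was 0.0573 to 0.140 in the other 3 no-UVB males, 0.0934 to 0.211 in UVB males, 0.0327 to 0.173 in no-UVB females and 0.0429 to 0.325 in UVB females. Any difference between groups lay within these ranges and was not detectable.

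**Figure D4:**
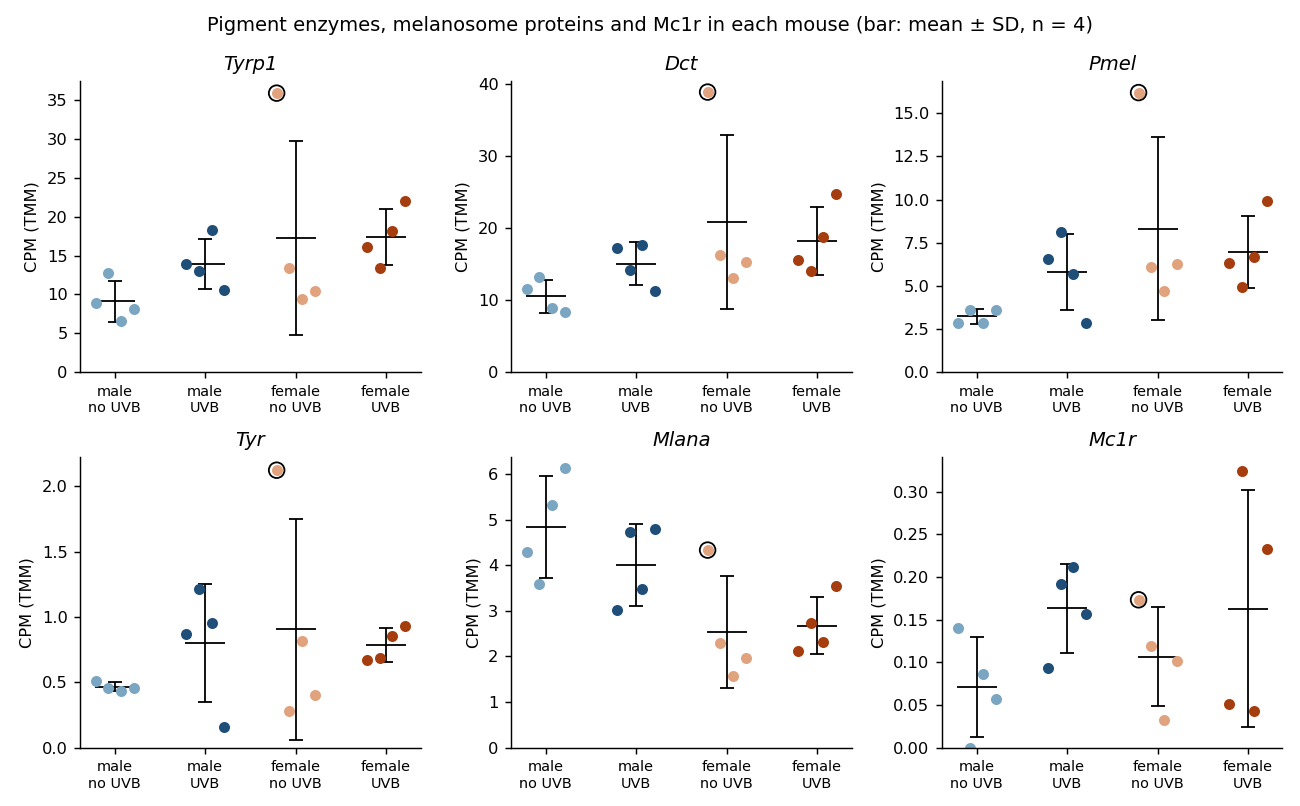
CPM of *Tyrp1*, *Dct*, *Pmel*, *Tyr*, *Mlana* and *Mc1r* in each mouse, with the mean ± SD of each group (n = 4); no-UVB female replicate 1 is ringed. That mouse is the highest of all 16 for *Tyrp1* (35.9 CPM), *Dct* (38.9), *Pmel* (16.2) and *Tyr* (2.12), and *Mlana* is higher in the no-UVB males than in most females.

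*Tyrp1* and *Dct* kept a steadier proportion to each other than either kept its level, and *Pmel* followed them less closely. Over the 16 mice *Tyrp1* spanned a 5.42-fold range and *Dct* a 4.68-fold range, or 3.32-fold and 2.97-fold without no-UVB female replicate 1, and the ratio of *Tyrp1* to *Dct* CPM spanned 1.52-fold with or without that mouse, from 0.680 to 1.04. *Pmel* to *Dct* spanned 2.32-fold, from 0.245 to 0.570, and 2.23-fold within UVB males alone, and *Mlana* to *Dct* spanned 6.63-fold, from 0.111 to 0.738. The correlation of log2 CPM over the 16 mice was 0.950 between *Tyrp1* and *Dct*, 0.906 between *Dct* and *Pmel* and 0.863 between *Tyrp1* and *Pmel*, and it was -0.142, -0.251 and -0.231 between *Mlana* and these 3. With group means subtracted the first values were 0.955, 0.832 and 0.809, and those with *Mlana* were 0.454, 0.413 and 0.511. The mice share groups and, for low counts, sampling error, and these values are descriptions. The ratio of *Dct* to *Mitf* CPM in males was 0.259 ± 0.0684 without UVB and 0.539 ± 0.0742 after it (SD, n = 4), with ranges of 0.203 to 0.351 and 0.433 to 0.602 that did not overlap, and in females it was 0.525 ± 0.214 and 0.594 ± 0.153. No-UVB female replicate 1 stood at 0.844 and the other 3 control females at 0.388 to 0.451 (0.418 ± 0.0315), against 0.448 to 0.794 after UVB.

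Genes outside the 10 with the most similar pattern were sought by Pearson's *r* of log2 CPM over the 16 mice. The mean of *Tyr*, *Tyrp1*, *Dct*, *Pmel* and *Mlana* was followed by *Sox4* (0.909), *Mmp11* (0.860), *Bcl2l11* (0.811), *Fam181b* (0.810) and *Lpar6* (0.798), and *Sox4* remained among the first 5 with group means subtracted (0.888), beside *Rundc3a* (0.894), *Gm14964* (0.884), *Hmga2* (0.876) and *Plekhm2* (0.855). *Kit* was followed by *Gpr141b* (0.942), *Usp35* (0.941), *Sncg* (0.931), *Wfdc18* (0.926) and *Dusp26* (0.906), and with group means subtracted by *P2ry10* (0.867), *Unc119b* (0.857), *2900041M22Rik* (0.851), *Gem* (0.851) and *Mlph* (0.834), the last of which takes part in melanosome transport. *Kitl* was followed by *Cd200r3* (0.883), *Cpa3* (0.881), *Arl6ip1* (0.876), *Snrpb2* (0.867) and *Ccdc174* (0.862), of which *Cpa3*, the mast cell carboxypeptidase, is on the mast cell list. With group means subtracted, *Znhit1* (0.868) came first for *Kitl*, and for both *Kit* and *Kitl* none of the 5 genes that followed it over the 16 mice remained among the first 5. *Mlana*, added after its values were seen, was followed by *Baalc* (0.905), *Myo16* (0.903), *Mmp2* (0.895), *Gpnmb* (0.894) and *Ctsk* (0.883), and with group means subtracted *Baalc* (0.857) was the 1 of them that remained among the first 5.

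**Figure D5:**
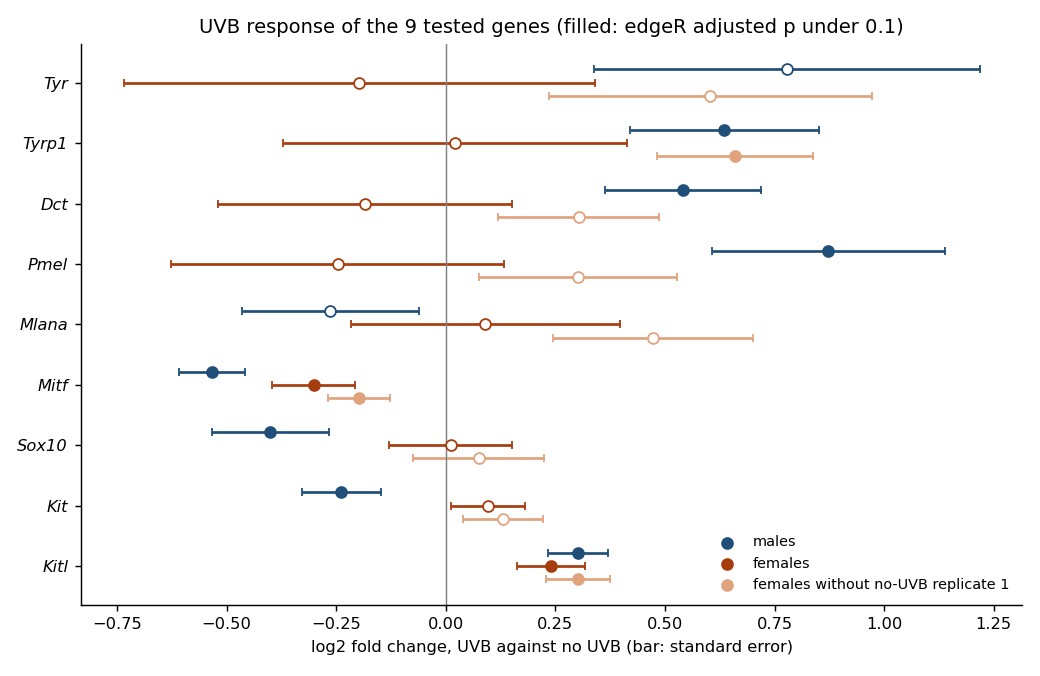
Log2 fold change of the 9 tested genes after UVB in males, in females, and in females without no-UVB replicate 1, with bars of 1 standard error and filled points where edgeR's adjusted *p* was under 0.1. In males *Tyrp1*, *Dct*, *Pmel* and *Kitl* lie to the right and *Mitf*, *Sox10* and *Kit* to the left; without the 1 control female, *Tyrp1* in females moves from 0.02 to 0.66.

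The test of the difference between the male and the female response, fitted over all 16 mice, called none of the 9 genes in either direction, against 2.75% of all genes called higher and 4.25% called lower. At an unadjusted *p* under 0.05 it gave 1 gene, *Kit*, and DESeq2 gave 0 at the adjusted threshold and 2 at the unadjusted one. For *Pmel* the difference was 1.10 (SE 0.529, 95% interval -0.048 to 2.256, adjusted *p* = 0.249, edgeR), and for *Dct* 0.71 (SE 0.436, adjusted *p* = 0.370, edgeR). Without no-UVB female replicate 1 these values were 0.55 for *Pmel* (adjusted *p* = 0.433, edgeR) and 0.22 for *Dct* (adjusted *p* = 0.694, edgeR), while that of *Mlana* went from -0.37 to -0.75 (adjusted *p* = 0.206, edgeR). For *Tyr* the difference was 0.96 (SE 0.765, 95% interval -0.704 to 2.631) and for *Tyrp1* 0.60 (SE 0.521, 95% interval -0.534 to 1.735), and without that mouse 0.16 and -0.04. Without no-UVB males 3 and 4 *Kit* was called (-0.44, SE 0.130, adjusted *p* = 0.0633, edgeR). The intervals are wide, and a response of these genes that passed in one sex and not in the other is not shown to differ.

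Without UVB, 5 of the 9 genes differed between the sexes. *Mlana* was higher in males by 0.93 on the log2 scale (SE 0.274, adjusted *p* = 0.0490, edgeR), 1 of 9 against 7.21% of all genes. *Pmel* (-1.36, SE 0.381, adjusted *p* = 0.0417), *Dct* (-0.98, SE 0.311, adjusted *p* = 0.0716), *Kit* (-0.27, SE 0.0869, adjusted *p* = 0.0662) and *Kitl* (-0.21, SE 0.0707, adjusted *p* = 0.0883) were lower in males by the same edgeR test, 4 of 9 against 4.58% of all genes. For *Pmel*, *Kit* and *Kitl* the groups did not overlap, 3 of 9 against 5.17%. The other 4 tested genes did not pass, with *Tyr* at -0.95 (SE 0.553), *Tyrp1* at -0.92 (SE 0.373), *Mitf* at 0.10 (SE 0.0859) and *Sox10* at -0.05 (SE 0.143), and *Tyrp1* was called lower without no-UVB female replicate 3 (-1.15) or 4 (-1.11). Without no-UVB female replicate 1, 0 of 9 genes were called lower in males. The values were then -0.81 for *Pmel* (adjusted *p* = 0.117, edgeR), -0.49 for *Dct* (adjusted *p* = 0.191), -0.24 for *Kit* (adjusted *p* = 0.159) and -0.14 for *Kitl* (adjusted *p* = 0.254, edgeR), while *Mlana* was called higher at 1.31 (adjusted *p* = 0.00350, edgeR). Over all 23 alternatives the adjusted *p* ran from 0.00257 to 0.130 for *Pmel*, 0.00973 to 0.191 for *Dct* and 0.00350 to 0.138 for *Mlana*, whose call was lost without no-UVB female replicate 2, 3 or 4 or no-UVB male replicate 4. The lower calls were also lost without other single mice: for *Pmel* without no-UVB male replicate 1, for *Dct* without no-UVB male replicate 1, 3 or 4, for *Kit* without no-UVB female replicate 2 or no-UVB male replicate 2, 3 or 4, and for *Kitl* without no-UVB female replicate 2, any 1 no-UVB male or UVB male replicate 3 or 4. *Kit* kept its call under 17 and *Kitl* under 14 of the 23. No-UVB male replicates 3 and 4, with the high hair shaft and matrix markers, were the mice with the highest *Mlana* of all 16. Without both, 0 of the 9 genes were called in either direction, with *Mlana* at 0.64 (adjusted *p* = 0.304, edgeR) and *Pmel* at -1.36 (adjusted *p* = 0.164, edgeR), and the part of those markers was not tested. In the same comparison 4 of 12 mast cell markers were lower in males and none was higher (median -0.35, against 4.58% of all genes), namely *Ms4a2* at -0.57, *Cpa3* at -0.47, *Mrgprb1* at -0.46 and *Mcpt4* at -0.37, and without no-UVB female replicate 1, 2 of 12 were lower. Their part in the *Kit* and *Kitl* values was not tested.

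After UVB, 2 of the 9 genes were lower in males than in females, against 12.5% of all genes, and none was higher, against 12.8%. *Kit* was lower by 0.62 on the log2 scale (SE 0.0878, adjusted *p* = 0.000371, edgeR), at 14.9 to 17.95 CPM in males and 23.3 to 28.2 CPM in females, the 1 gene without overlap (against 9.76%), and this call held under all 23 alternatives. *Sox10* was lower by 0.48 (SE 0.146, adjusted *p* = 0.0339, edgeR), a call lost without UVB female replicate 4 (-0.36, adjusted *p* = 0.111) or UVB male replicate 1 (-0.41, adjusted *p* = 0.108, edgeR, with 0.0234 to 0.111 over 23 alternatives). The other 7 did not pass, with *Mlana* at 0.56 (SE 0.278), *Tyr* at 0.01 (SE 0.527), *Tyrp1* at -0.32 (SE 0.364), *Dct* at -0.27 (SE 0.306), *Pmel* at -0.26 (SE 0.367), *Mitf* at -0.15 (SE 0.0873) and *Kitl* at -0.16 (SE 0.0704). Without no-UVB female replicate 1, which shares the fit, *Mlana* (adjusted *p* = 0.0814, edgeR) and *Kitl* (adjusted *p* = 0.0893, edgeR) passed, as did *Kitl* without UVB male replicate 2 (-0.20, adjusted *p* = 0.0838, edgeR). In the same comparison 9 of 12 mast cell markers and 10 of 14 Schwann cell markers were lower in males, against the 12.5% of all genes, and none was higher. The part of either cell type in these differences was not tested.

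The wider set of pigment cell genes was read against the same shares of all genes tested, which were 29.0% higher and 30.5% lower in males and 12.8% higher and 10.6% lower in females. Of 16 tested genes for other melanosome and pigment functions, 5 rose and 6 fell in males (median -0.07) and 3 rose and 3 fell in females (median -0.04), shares near those of all genes in males. The cystine transporter gene *Slc7a11*, which sets the supply for pheomelanin and is also induced by oxidative stress in other cells, rose by 3.13 in males (SE 0.37, adjusted *p* = 9.62e-05, edgeR), from 0.552 to 1.21 CPM without UVB to 3.60 to 10.8 CPM with it, and was 0.28 in females (adjusted *p* = 0.451, edgeR). The male response of *Slc7a11* exceeded the female one by 2.84 (SE 0.456, adjusted *p* = 0.00739, edgeR). *Rab38*, which sorts enzymes to the melanosome, rose by 1.52 in males and 1.02 in females, a difference of 0.48 (SE 0.143, adjusted *p* = 0.0758, edgeR). By the test of the difference 2 of 16 genes of this list were called higher (against 2.75% of all genes), and 1 without no-UVB female replicate 1. The potassium dependent exchanger gene *Slc24a5* rose by 0.86 in males (adjusted *p* = 0.0508, edgeR), and *Pcbd1* fell by 0.79 in males.

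Among 18 lineage regulators and receptors, 4 rose and 8 fell in males (median -0.19) and none rose and 1 fell in females (median -0.12), against the same 29.0% and 30.5% in males and 12.8% and 10.6% in females. Without no-UVB males 3 and 4, 4 rose and 6 fell in males (against 28.9% and 27.1%). Without no-UVB female replicate 1, 1 rose and 2 fell in females. *Tfap2a*, a transcription factor shared with keratinocytes, rose by 0.71, while the chemokine receptors *Ackr3* and *Cxcr4* fell by 0.78 and 0.72 and *Foxd3*, a neural crest factor that holds MITF down, fell by 0.76 in males. *Met*, the receptor of hepatocyte growth factor, fell in both sexes, by 0.36 in males (adjusted *p* = 0.00210, edgeR) and 0.30 in females (adjusted *p* = 0.0305, edgeR).

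Of 13 tested signals that act on melanocytes, 4 rose and 6 fell in males (median -0.25) and 1 rose and 1 fell in females (median -0.15), with 29.0% higher and 30.5% lower over all genes in males and 12.8% and 10.6% in females. Without no-UVB males 3 and 4, 5 rose and 3 fell in males. *Asip*, the agouti signal that blocks MC1R, rose in both sexes, by 1.27 in males (adjusted *p* = 0.00294, edgeR) and 1.16 in females (adjusted *p* = 0.0476, edgeR). *Bmp4* fell by 1.19 and *Edn3*, an endothelin that melanocytes need, by 1.15 in males, and *Nrg1* rose by 1.34 (adjusted *p* = 0.0596, edgeR). *Wnt10b* fell in both sexes, by 0.91 in males (adjusted *p* = 0.0132, edgeR) and 0.70 in females (adjusted *p* = 0.0256, edgeR). *Pomc*, the source of melanocortin, had at most 7 reads in any mouse and was not tested. The 10 p53 target genes, a check that irradiated skin responded, rose in 7 of 10 cases in males (against 29.0%) and 10 of 10 in females (against 12.8%), with none lower. Without no-UVB males 3 and 4, 7 were higher and 1 lower in males (against 28.9% and 27.1%). Without no-UVB female replicate 1, 9 of 10 were higher in females.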

How the data were processed

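Whole dorsal skin of 16 mice was sequenced by the authors as polyadenylated RNA with a directional kit, aligned to GRCm39 with STAR (version not given in the sources used here), and deposited for each mouse as a table of raw counts, that is whole numbers of reads per gene that no one had normalized. Of the 3 counts listed per gene, that of the strand the kit reports was used, since the other strand held 3.63 to 4.23% of the reads on genes of both strands. Rows for unmapped reads (10.12 to 16.36% of a library), reads outside genes (8.3 to 13.69%) and ambiguous reads (1.17 to 1.34%) stayed out of library sizes and tests, and reads mapping to several places were listed at 0. Symbols came from GENCODE M39 (54749 of 55359 identifiers), and every one of 142 listed symbols was matched, *Asip* under its older symbol.

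Genes were kept by filterByExpr, scaled by TMM and tested by edgeR 4.0.16 with robust estimation in R 4.3.3 (limma 3.58.1), and called at an adjusted *p* under 0.1. DESeq2 1.42.0 was an alternative, and tables and plots were made with pandas 2.3.3, matplotlib 3.10.9 and Python 3.11.15. Log2 CPM for correlations used a prior count of 2, and CPM per kilobase used the union of GENCODE exons. The 95% intervals are the fitted value ± its SE times the t quantile. Alternatives were unstranded counts, DESeq2's or upper quartile scaling, a minimum of 1 count in all, a minimum of 10 counts throughout, a block for the replicate number, all 16 mice in a single fit, other thresholds, and leaving out each mouse. Leaving out both no-UVB males 3 and 4, and the gene list counts without no-UVB female replicate 1, were added after seeing the data. The procedure was tested on simulated data. The 9 tested genes are named in each comparison and *Mc1r* by its level, and from each other list at most 4 called genes with the largest change, with *Itga6*, *Met* and *Wnt10b* and the genes most like *Mlana* and *Mitf* added after values were seen. The 10 genes and all lists were chosen with earlier results of these data known, and lists were written by hand from general knowledge. Same-numbered mice were checked for shared deviations (correlations -0.073 to 0.022 in males and -0.115 to 0.217 in females).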

Additional observations from a re-analysis of the deposited data

Results flagged for a closer look

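In 40 sets of 4 mice (10 genes in 4 groups) the highest or lowest mouse was set against the others, and in 4 sets 1 mouse lay farther from its nearest neighbour, as a share of the range of the group, than Dixon's test allows at the 95% level. Chance flags about 1 in 20 such groups. All 4 were no-UVB female replicate 1, with *Tyrp1* at 35.9 CPM (gap 0.853 of the range), *Dct* at 38.9 CPM (0.880), *Pmel* at 16.2 CPM (0.863) and *Kitl* at 65.6 CPM (0.850). The values are not independent of each other, since all came from 1 library, and *Tyrp1*, *Dct* and *Pmel* vary together over all mice. The same library had 21033397 reads on genes, within the range of the others, and its hair shaft and matrix markers summed to 48.1 CPM and its Schwann cell markers to 771 CPM, the latter inside the range of the other control females (684 to 870 CPM) and the former near their highest (48.2 CPM). Its mast cell markers summed to 427 CPM, above the other control females at 288 to 326 CPM, and the part of mast cells in these values was not tested. None of the 9 tested genes had a response to UVB that passed the test of a difference between the sexes.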

How the results depend on the processing

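Each value was paired with each of its alternatives, many of which left out 1 mouse. For values that had passed the test, 259 of these pairs kept the call and direction, 46 lost the call and 0 turned direction. For values that had not passed, 559 pairs kept both, 11 passed and 28 turned direction. The number of genes called higher in males (4) was 2 with all 16 mice in a single fit. It was 0 in each direction in males, and for the lower calls after UVB (2), with a log2 fold change past 1. In females both counts (1 and 1) were 0 at an adjusted *p* under 0.05 or with that fold change, and the higher count was 0 under upper quartile scaling or with every gene of at least 1 count. Without UVB the higher count in males (1) was 0 with that fold change, and the lower count (4) was 0 with every gene of at least 1 count, 1 at an adjusted *p* under 0.05 and 1 with that fold change. Leaving out each mouse in turn gave 0 to 2 higher and 0 to 1 lower calls in females, 0 to 1 lower calls for the difference of the responses, 0 to 1 higher and 0 to 5 lower calls between the sexes without UVB, and 0 to 1 higher and 1 to 3 lower calls after UVB. The lower call for the difference of the responses was *Kit* or *Mitf*, and it appeared without no-UVB female replicate 1, UVB female replicate 3 or no-UVB male replicate 3.

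With no-UVB males 3 and 4 both left out, an alternative chosen after seeing the data and not counted above, 2 genes were called higher in males, 1 was called lower for the difference of the responses and 0 in each direction between the sexes without UVB, and *Mlana* in males turned to 0.0437.

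The values that turned direction had not passed the test. Leaving out 1 mouse took the female responses from -0.50 to 0.60 for *Tyr*, -0.19 to 0.66 for *Tyrp1*, -0.36 to 0.30 for *Dct*, -0.46 to 0.30 for *Pmel*, -0.0931 to 0.47 for *Mlana* and -0.10 to 0.0889 for *Sox10*, the difference of the responses from -0.0418 to 0.82 for *Tyrp1* and -0.0168 to 0.10 for *Kitl*, *Sox10* between the sexes without UVB from -0.16 to 0.0299, and *Tyr* after UVB from -0.21 to 0.34. Upper quartile scaling gave -0.0216 for *Tyrp1* and -0.0265 for *Sox10* in females and -0.0275 for *Tyr* between the sexes after UVB. With the replicate number as a block, *Tyr* was 0.0433 in females and -0.0985 between the sexes after UVB. Whether same-numbered mice share more than the number is not known from the labels, and the block moved no count of calls by over 1.5 times. The cause of these shifts was not tested, beyond the smaller number of mice when 1 is left out. Depth limits *Tyr* (3 to 49 reads) and *Mc1r* (0 to 9 reads), and with 4 mice per group the SE of the pigment genes in females was 0.31 to 0.54 on the log2 scale.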

Other observations

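The markers listed for anagen hair shaft and matrix differed among control males. In no-UVB males *Krt71* ran from 0.140 to 39.85 CPM and *Krt25* from 0 to 21.4 CPM. In the other groups they reached at most 1.75 and 0.360 CPM. Of 16 listed genes 5 had enough counts to be tested within a sex, with 2 higher and 2 lower in males after UVB (against 29.0% and 30.5% of all genes) and 2 higher and 1 lower in females (against 12.8% and 10.6%). Without no-UVB males 3 and 4, 2 of 5 were higher and 0 lower in males (against 28.9% and 27.1%). The *Dlx3* gene rose in both sexes, by 0.88 in males (adjusted *p* = 7.01e-05, edgeR) and 0.77 in females (adjusted *p* = 0.00869, edgeR), and *Hoxc13* fell by 0.76 in females (adjusted *p* = 0.0400, edgeR). Of 8 listed mammary epithelium markers 2 were tested. *Elf5* rose in males by 2.14 and in females by 1.37, and it made up most of the list's sum, which was at most 17.4 CPM. Its mean in UVB males was 15.3 CPM. Mean *Krt8* went from 0.749 to 0.556 CPM after UVB in males and from 0.858 to 0.470 CPM in females. *Csn1s1*, *Csn2*, *Csn3*, *Wap* and *Lalba* had at most 3 counts in any mouse.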
